A study of Mus musculus with 6 samples.

Results

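The genes described here are 6 genes that build and maintain the fibre cells of the eye lens: Mip, Lim2, Gja3, Bfsp1, Bfsp2 and Hsf4. They were chosen by name, as a set of lens fibre membrane, cytoskeleton and regulatory genes, out of 22558 genes in the deposited table, and all 6 were found in it and tested. RNA of whole eyes was sequenced from mice at postnatal day 21 in 6 libraries, 3 labelled wild type and 3 labelled BC027072 -/-, with C57BL/6 given as the strain of both groups. BC027072 is the mouse ortholog of human PCARE, a gene of the photoreceptor cilium. How the null allele was made, the sex of the mice and whether a library holds 1 animal or several are not given in the sources used here, so p-values reflect only how these libraries vary, which may be technical. Replicates 1 to 3 are named by their order in the deposited table, and which titled sample each one is was not given.

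The lens is a sphere of elongated fibre cells that lose their nuclei and organelles as they mature and then live on the proteins they have made. Water and ions reach the inner fibres through aquaporin 0 and gap junction channels in the fibre membranes. A filament found in lens fibres, the beaded filament, is assembled from filensin and phakinin and helps to hold fibre shape and lens clarity. Loss of any of these components is known to cloud the lens in mice or people.

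The libraries held 5695530 to 21815950 fragments. BC027072 had 5854, 3667 and 2251 fragments in wild type and 3, 2 and 3 in the knockout, so each library matched its genotype label for the targeted gene. Reads of Xist and of 4 Y-linked genes marked all 3 wild type libraries and knockout replicate 2 as female and knockout replicates 1 and 3 as male, so sex and genotype are partly confounded. The defining markers of the lens, the crystallins, were present in every library, at 14.4% to 16.6% of all fragments.

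None of the 6 genes changed past the threshold between knockout and wild type. All 6 had a lower estimate in the knockout, by 0.02 to 0.21 on the log2 scale, and the largest difference was that of Bfsp2, with a level 13.5% lower. In CPM, counts of fragments relative to library size, all 6 genes and all 16 crystallin genes stood highest in wild type replicate 3. In the authors' deposited FPKM, which are computed differently, 5 of the 6 genes and 15 of the 16 crystallins were instead highest in wild type replicate 2. Which library stands highest thus depends on the measure. The 2 measures do not differ by 1 factor per library. From wild type replicate 1 to 3, Mip went from 2095 to 2606 CPM and from 762 to 1237 FPKM. Bfsp1 went from 1637 to 1900 CPM and from 731 to 786 FPKM. The reason was not tested. Of all 14919 genes tested, 4182 were highest in wild type replicate 2 in FPKM and 4871 in wild type replicate 3. Relative to the crystallins, the 6 genes together held a nearly constant level in every library of both genotypes.

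Levels below are CPM, scaled between libraries by the TMM method, and tests are edgeR quasi-likelihood tests over all 14919 genes that passed a filter on low counts, with Benjamini-Hochberg adjustment and a threshold of 0.05. Of these genes, 931 passed, or 6.24%, against 0 of the 6 lens fibre genes. At an unadjusted p under 0.05 stood 2 of the 6, Bfsp1 and Bfsp2, both lower, beside 19.0% of all genes tested. With DESeq2, which called 5.06% of the genes, 1 of the 6 passed, Bfsp2. With limma on log2(FPKM + 1) none of the 6 passed, but only 10 genes were called higher and 3 lower in all. It also called none of the 8 rod markers, all of which passed in edgeR, so it decides little about the 6. The median log2 fold change of the 6 was −0.16 and that of all genes tested 0.00, and 49.4% of all genes had an estimate below 0. Because whole eyes were sequenced, fewer lens cells and less RNA per lens cell cannot be told apart.

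**Figure D1:**
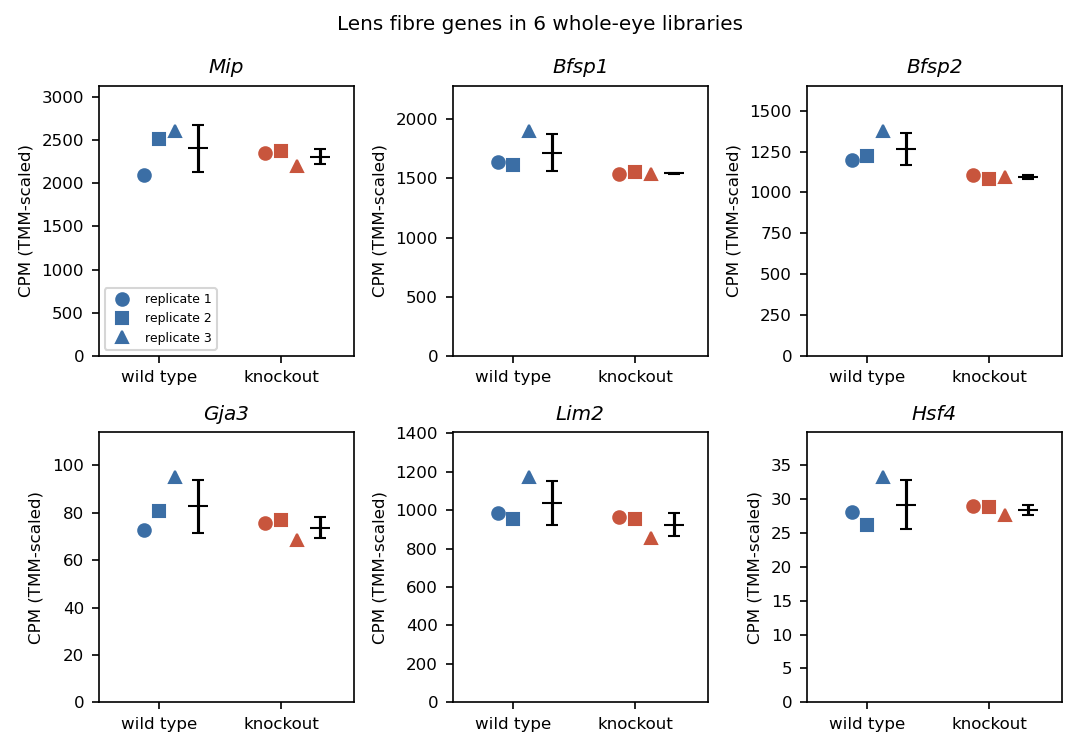
CPM of the 6 lens fibre genes in each library (points, marked by replicate number), with the mean and SD of each group of 3 beside them; every vertical axis starts at 0. The triangle of wild type replicate 3 is the highest point in every panel on this scale, and only the points of Bfsp1 and Bfsp2 do not overlap between the groups.

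The channel and membrane genes come first. Mip encodes aquaporin 0, the main water channel and most abundant membrane protein of lens fibres (NM_008600, chromosome 10, 127662894 to 127668867 in mm9, the build of the files). Its level was 2095, 2510 and 2606 CPM in wild type replicates 1 to 3 and 2348, 2375 and 2206 CPM in the knockout. The knockout values lay inside the wild type range. The group means were 2404 ± 272 and 2309 ± 90.9 CPM (SD, n = 3 each), and the edgeR log2 fold change was −0.06 ± 0.08 (SE, adjusted p = 0.763). Its 95% interval ran from −0.22 to 0.11, which corresponds to a knockout level between 0.857 and 1.08 times that of wild type.

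Lim2 encodes MP20, a membrane protein related to the PMP22 and claudin families (NM_177693, chromosome 7, 50685471 to 50691361). It stood at 986, 955 and 1170 CPM in wild type and at 964, 954 and 858 CPM in the knockout. Knockout replicates 2 and 3 lay below the wild type range and knockout replicate 1 inside it. The means were 1037 ± 116 and 925 ± 58.6 CPM (SD, n = 3 each), with an edgeR log2 fold change of −0.16 ± 0.08 (adjusted p = 0.281, 95% interval −0.33 to 0.01).

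Gja3 encodes a connexin of the gap junctions between fibres (NM_016975, chromosome 14, 57654497 to 57676782). Its levels were 72.8, 80.7 and 94.9 CPM in wild type and 75.9, 76.8 and 68.5 CPM in the knockout. The groups overlapped, since wild type replicate 1 lay below 2 of the 3 knockout libraries. The means were 82.8 ± 11.2 and 73.7 ± 4.54 CPM (SD, n = 3 each), with an edgeR log2 fold change of −0.16 ± 0.09 (adjusted p = 0.355, 95% interval −0.34 to 0.03).

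Bfsp1 and Bfsp2 encode the 2 partners of the beaded filament. Bfsp1 encodes filensin (NM_009751, chromosome 2, 143652264 to 143688909) and stood at 1637, 1616 and 1900 CPM in wild type and at 1539, 1550 and 1541 CPM in the knockout. Every knockout value in CPM was below every wild type value, and the knockout libraries lay close together. In the authors' deposited FPKM the groups overlapped, at 731, 1027 and 786 in wild type and 775, 832 and 710 in the knockout. The means were 1718 ± 159 and 1543 ± 5.75 CPM (SD, n = 3 each), with an edgeR log2 fold change of −0.15 ± 0.07 (adjusted p = 0.245, 95% interval −0.30 to −0.00).

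Bfsp2 encodes phakinin, also called CP49 (NM_001002896, chromosome 9, 103325908 to 103382658). Its levels were 1199, 1222 and 1376 CPM in wild type and 1104, 1085 and 1094 CPM in the knockout. Again the groups did not overlap in CPM, with all knockout libraries below wild type. They overlapped in the authors' deposited FPKM, at 864, 1187 and 886 in wild type and 870, 892 and 798 in the knockout. The means were 1266 ± 95.8 and 1094 ± 9.79 CPM (SD, n = 3 each), with an edgeR log2 fold change of −0.21 ± 0.07 and a 95% interval of −0.35 to −0.07 (adjusted p = 0.0820). Bfsp2 passed with DESeq2 (−0.21, adjusted p = 0.0243) and, in edgeR, without wild type replicate 1 (−0.25, adjusted p = 0.0467), while over all alternatives its adjusted p ran from 0.0243 to 1.00. Groups that did not overlap in CPM were found for these 2 of the 6 genes, and for 23.3% of all genes tested. The locus of 5830418P13Rik coincides with that of Bfsp2 in the files, and it held 4 to 13 fragments per library. No other locus in the files overlapped that of any of the 6 genes.

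Hsf4 encodes a heat shock transcription factor that is active in the lens without heat stress and is required in mice for normal fibre maturation (NM_011939, chromosome 8, 107793774 to 107799745). It was the least abundant of the 6, at 28.1, 26.2 and 33.2 CPM in wild type and 28.9, 28.8 and 27.6 CPM in the knockout, on 167 to 605 fragments per library. The knockout values lay inside the wild type range. The means were 29.1 ± 3.61 and 28.4 ± 0.744 CPM (SD, n = 3 each), with an edgeR log2 fold change of −0.02 ± 0.09 (adjusted p = 0.933). Its 95% interval of −0.22 to 0.18 corresponds to a knockout level between 0.857 and 1.13 times that of wild type.

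The sequence before the annotated start was read for 5 of the 6 genes from RefSeq promoters of build GRCm38.p6, a later build than that of the expression files. The 250 bases before the start were searched on both strands for TGCTGA, the core of the site that Maf factors of the lens bind, and for the heat shock element letters GAANNTTC and TTCNNGAA that heat shock factors such as Hsf4 bind. TGCTGA, or its reverse complement, stood once each before Mip, Bfsp1 and Lim2, with its first base at −132, −187 and −139 from the start, and was not found before Bfsp2 or at either start of Gja3. It stood in 16.1% of all 32851 promoter windows of that length. Neither heat shock motif was in the windows of the 5 genes, and they stood in 6.69% and 7.17% of all windows. A match is a description of letters and not a binding site. The 3 windows with the motif and that of Bfsp2, the gene with the largest difference, are shown from 5′ to 3′ on the strand of the gene, with TGCTGA or its reverse complement in capitals.

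Mip (chr10:128225560-128225809, plus strand): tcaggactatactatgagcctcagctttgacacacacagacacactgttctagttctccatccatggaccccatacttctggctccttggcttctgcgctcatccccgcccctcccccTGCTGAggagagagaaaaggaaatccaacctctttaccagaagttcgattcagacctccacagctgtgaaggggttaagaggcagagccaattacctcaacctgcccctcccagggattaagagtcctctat

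Bfsp1 (chr2:143863174-143863423, minus strand): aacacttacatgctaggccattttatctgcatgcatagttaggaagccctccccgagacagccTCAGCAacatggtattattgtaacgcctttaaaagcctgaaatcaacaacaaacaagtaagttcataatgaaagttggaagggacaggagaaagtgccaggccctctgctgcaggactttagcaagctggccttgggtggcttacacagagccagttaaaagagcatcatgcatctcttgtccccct

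Lim2 (chr7:43429849-43430098, plus strand): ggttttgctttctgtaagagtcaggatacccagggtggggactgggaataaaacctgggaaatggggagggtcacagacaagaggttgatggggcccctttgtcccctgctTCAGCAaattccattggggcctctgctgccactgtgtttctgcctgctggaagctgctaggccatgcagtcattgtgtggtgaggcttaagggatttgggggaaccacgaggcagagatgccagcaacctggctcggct

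Bfsp2 (chr9:103449177-103449426, minus strand): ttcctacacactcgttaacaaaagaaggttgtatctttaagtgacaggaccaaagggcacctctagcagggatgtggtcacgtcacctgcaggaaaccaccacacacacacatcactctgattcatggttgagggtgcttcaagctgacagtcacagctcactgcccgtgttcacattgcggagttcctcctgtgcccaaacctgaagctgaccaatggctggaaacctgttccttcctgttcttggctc

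Levels of different genes were compared per length, as CPM per kilobase of the longest transcript listed for each gene. For each of the 6 genes this is the only one listed, while genes with several are lowered by this choice. Averaged over the 6 libraries, Lim2 stood at 1133 and Mip at 1100 CPM per kilobase, ranks 29 and 30 of the 14919 genes tested. Bfsp2 and Bfsp1 followed at 752 and 687 CPM per kilobase, ranks 49 and 52. Gja3 stood at 55.5 (rank 983) and Hsf4 at 18.3 CPM per kilobase (rank 3818). By the authors' mean FPKM, among all genes with a valid estimate, Lim2, Mip, Bfsp2 and Bfsp1 ranked 31, 64, 68 and 80. Mip, Lim2, Bfsp1 and Bfsp2 were thus among the most abundant transcripts of the whole eye, with the connexin gene Gja3 and the regulator Hsf4 well below them. Lim2 and Mip could not be ordered on this scale, since the ratio of Lim2 to Mip ran from 0.942 to 1.17 over the libraries. In the authors' deposited FPKM values Lim2 was above Mip in every library, at 1416 to 2202 against 762 to 1237 FPKM.

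Ratios between partner genes were taken within each library. The ratio of Bfsp1 to Bfsp2, per kilobase, was 0.903, 0.875 and 0.914 in wild type and 0.923, 0.946 and 0.932 in the knockout. All knockout ratios were above all wild type ratios, with means of 0.898 ± 0.0204 and 0.933 ± 0.0117 (SD, n = 3 each). A two-sided exact permutation test gave p = 0.10, the smallest that 3 libraries against 3 allow, and p = 0.25 after adjustment over the 5 ratios reported. These pairs and the crystallin ratio below were chosen with the values of the genes known.

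The ratios of Lim2 to Mip (1.07 ± 0.116 in wild type and 0.991 ± 0.0269 in knockout) and of Bfsp1 to Mip (0.649 ± 0.0628 and 0.604 ± 0.0233; SD, n = 3 each) overlapped between the groups. That of Bfsp1 to Vim, the gene of the widely expressed filament protein vimentin, was 2.17, 2.10 and 2.33 in wild type and 1.91, 1.91 and 1.93 in the knockout, without overlap (exact permutation p = 0.10, adjusted p = 0.25). Vim itself is also expressed outside the lens, so this ratio sets a lens gene against a gene of several eye tissues.

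The 6 genes moved with the crystallins from library to library. Together they made up 0.593% to 0.693% of all fragments, and the highest share was in wild type replicate 3, as it was for the crystallins. As a percentage of the summed crystallin CPM they stood at 4.12, 4.24 and 4.17 in wild type and at 4.10, 4.14 and 4.14 in the knockout. The groups overlapped, with means of 4.18% ± 0.0573 and 4.13% ± 0.0220 (SD, n = 3 each, exact permutation p = 0.30, adjusted p = 0.40).

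The mean deviation of the 6 genes from their own averages was 0.22 on the log2 scale in wild type replicate 3, against −0.04 and 0.00 in wild type replicates 1 and 2. In knockout replicates 1 to 3 it was −0.04, −0.04 and −0.12. The 16 crystallins deviated by 0.21 in wild type replicate 3 and by −0.12 in knockout replicate 3. In CPM, 14.9% of all genes tested were highest in wild type replicate 3, against 6 of 6 lens fibre genes and 16 of 16 crystallins. Without this library the log2 fold changes of Bfsp1, Bfsp2, Gja3 and Lim2 were −0.07, −0.14, −0.06 and −0.07, and those of Mip and Hsf4 were 0.01 and 0.06.

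**Figure D2:**
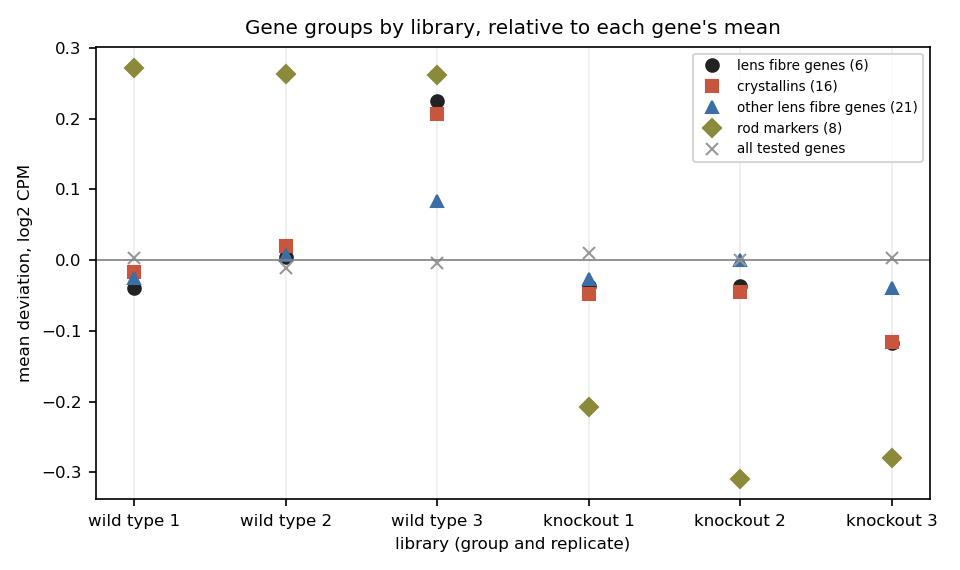
Mean deviation of log2(CPM + 0.5) from each gene's own mean over the 6 libraries, by library, for the 6 lens fibre genes, 16 crystallins, 21 other lens fibre genes, 8 rod markers and all 14919 tested genes. The lens fibre genes and the crystallins are, in CPM, highest in wild type replicate 3 (0.22 and 0.21) and lowest in knockout replicate 3 (−0.12 each), while rod markers part the genotypes.

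Sex was entered in 2 ways. Both male libraries are knockout, so with sex as a covariate the genotype estimate rests on knockout replicate 2 against the 3 wild type libraries. With library sex as a covariate the log2 fold change was −0.22 for Bfsp2, −0.15 for Bfsp1, −0.12 for Lim2, −0.10 for Gja3, −0.02 for Mip and −0.00 for Hsf4, and none passed in edgeR. In the female libraries alone, where 1 knockout library is set against 3 and is assumed to vary like the wild type, each value was the same to 2 decimals. The 2 fits share this contrast, so their likeness is no second check. A call lost in either fit, here or below, cannot be read as an effect of sex.

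Other genes of the fibre membrane, skeleton and maturation gave a wider background. Of 21 such genes, 1 fell and 20 did not pass, with a median log2 fold change of −0.03. The gene that fell was Tdrd7, which encodes a Tudor domain protein of RNA granules needed for a clear lens in mice and people, from 874 ± 48.8 to 719 ± 12.3 CPM (SD, n = 3 each; edgeR log2 fold change −0.28 ± 0.06, adjusted p = 0.0137). That call was lost in 7 of 15 alternatives, among them those without wild type replicate 2, wild type replicate 3 or knockout replicate 3.

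Of the 16 crystallins, the soluble proteins that fill the fibres, 5 fell and 11 did not pass, with a median of −0.10. Cryga (−0.44 ± 0.07, adjusted p = 0.00115), Crybb1 (−0.34 ± 0.06, adjusted p = 0.00301) and Crygn (−0.25 ± 0.06, adjusted p = 0.0147) fell in edgeR and had the smallest p. Several gamma crystallin genes are close copies of each other, so their reads may be shared between them. With library sex as a covariate, where genotype rests on knockout replicate 2, Cryga, Crybb1 and Crygn did not pass. Crygn also did not pass once knockout replicate 2 or 3, or wild type replicate 3, was left out.

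**Figure D3:**
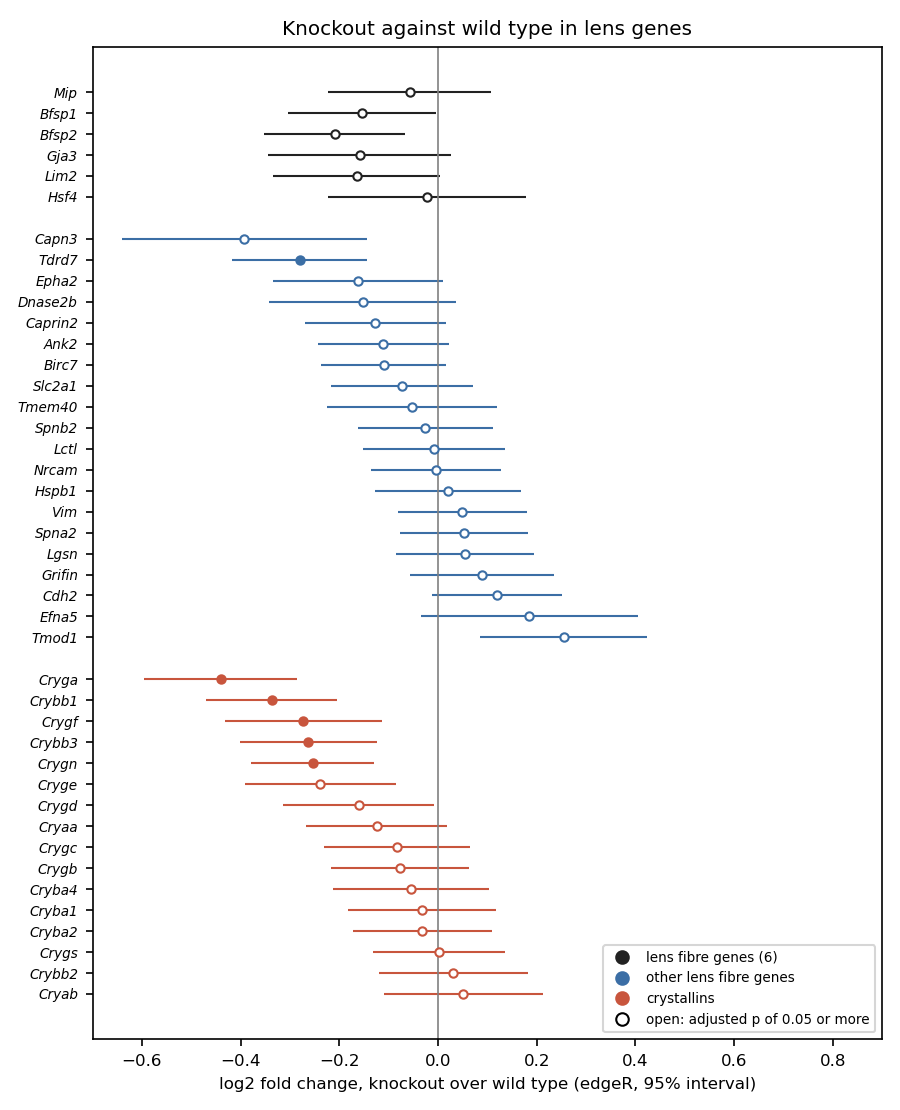
Log2 fold changes of knockout over wild type with 95% intervals from edgeR for the 6 lens fibre genes, 20 of the 21 other lens fibre genes and 16 crystallins, with filled points for genes past the adjusted threshold. All 6 lens fibre genes are open points between −0.21 and −0.02, while Tdrd7 and 5 crystallins are filled.

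Regulators of lens development were also examined. Of 15 tested, among them Pax6, Prox1 and Maf, none passed in edgeR or DESeq2, with 3 at an unadjusted p under 0.05 and a median of −0.06. The other heat shock factors and their binding protein gave 3 tested genes, with none past the threshold in edgeR or DESeq2, none at an unadjusted p under 0.05 and a median of −0.10. Of 5 lens epithelium markers none passed in either test, with 1 at an unadjusted p under 0.05 and a median of 0.05. Their summed levels were 369 to 402 CPM in wild type and 385 to 433 CPM in the knockout. Gja1 held the largest part of these sums, at 197 to 235 CPM, while Foxe3 stood at 1.34 to 3.56 CPM. In whole eyes such sums may include RNA from outside the lens.

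The wider families of the 6 genes include members of other eye tissues. Among the other aquaporins 6 were tested and 1 rose, Aqp4, the water channel of Mueller glia and astrocytes (0.40 ± 0.06, adjusted p = 0.000369). Among the other connexins 15 were tested and 1 fell, Gjd2, which joins retinal neurons (−0.44 ± 0.06, adjusted p = 0.000375). Of the 4 relatives of Lim2, Emp1 rose (0.31 ± 0.06, adjusted p = 0.00528).

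Of 19 other intermediate filament genes 3 rose and none fell. They were Gfap, the filament of reactive glia (0.61 ± 0.13, adjusted p = 0.00985), and the epithelial keratin genes Krt14 (0.56 ± 0.11, adjusted p = 0.00445) and Krt12 (0.25 ± 0.07, adjusted p = 0.0396). With library sex as a covariate, where genotype rests on knockout replicate 2, Aqp4 passed, and Gjd2, Emp1, Gfap, Krt14 and Krt12 did not. Gfap did not pass with DESeq2 or without knockout replicate 1, and Krt12 did not pass when any library other than wild type replicate 3 was left out.

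Markers of other eye tissues were summed in the same libraries. The 8 rod markers summed to 28063 to 28909 CPM in wild type and 17404 to 19726 CPM in the knockout, where 7 fell and 1 rose, and those that fell included Nrl (−1.02 ± 0.06) and Prph2 (−0.66 ± 0.06). The 6 cornea markers summed to 4404 to 4855 and 5100 to 5314 CPM, with 1 that rose, Krt12. The 5 markers of the retinal pigment epithelium summed to 1288 to 1332 and 1536 to 1568 CPM, with 4 tested, of which Ttr rose (0.56 ± 0.06) and Rpe65 fell (−0.28 ± 0.07). The Rpe65 call was lost in 7 of 15 alternatives, among them library sex as a covariate and leaving out knockout replicate 1 or 2 or wild type replicate 2. The 6 muscle markers summed to 1905 to 2823 and 2587 to 2992 CPM, which overlap, with 2 that rose, Myh4 (0.54 ± 0.09) and Actn3 (0.48 ± 0.13). The Actn3 call was kept in 5 of 15 alternatives. It was lost with DESeq2 and when any library other than wild type replicate 3 was left out. With library sex as a covariate, where genotype rests on knockout replicate 2, neither Myh4 nor Actn3 passed. Every marker of these lists had fragments in some library. Their part in the values of the lens fibre genes was not tested.

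The genes whose pattern over the 6 libraries was most like the mean pattern of the 6 lens fibre genes were taken as a description, by Pearson's r of log2 CPM among 14878 other genes with a mean of at least 1 CPM. The 8 highest were Enox2, Nnt, Srr, Cldn10, Max, Stk16, Brwd3 and Tll1, with r from 0.960 to 0.981 over 6 libraries that share their depth and tissue makeup. None of the 8 belongs to the gene lists used here, and none passed in edgeR (adjusted p 0.393 to 0.723). An r above 0.8 was reached by 2.36% of all genes compared, by 10 of the 16 crystallins, by 4 of the 21 other lens fibre genes and by none of the 8 rod, 6 cornea or 6 muscle markers. The median r was 0.83 for the crystallins, 0.53 for the other lens fibre genes, 0.56 for the rod markers and 0.00 for all genes.

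In the authors' deposited comparison, which rests on their own FPKM and covers 14403 genes, none of the 6 had a q-value under 0.05, against 1001 genes that did. The q-value in the authors' deposited table was 0.207 for Gja3 and 0.230 for Lim2, the smallest of the 6, and 0.445 to 0.924 for the others. The authors' deposited table gave Lim2 1889 FPKM in wild type and 1581 FPKM in the knockout, and Bfsp2 979 and 854 FPKM.

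**Figure D4:**
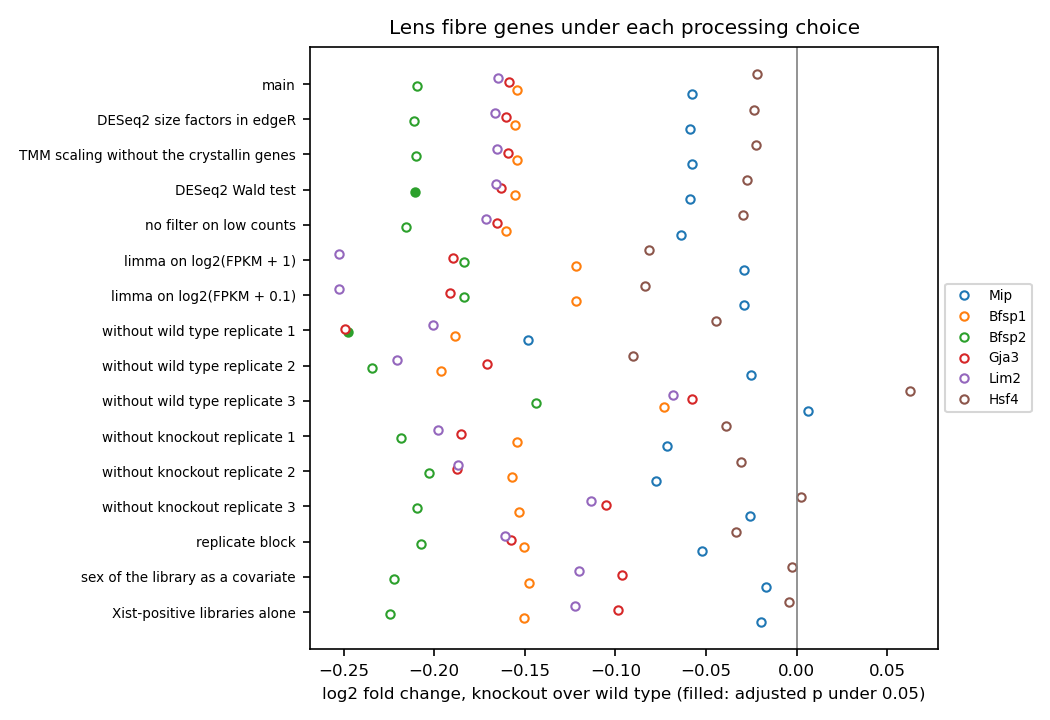
Log2 fold change of each of the 6 lens fibre genes (colours) in the main test and under the 15 alternatives (rows), with filled points for an adjusted p under 0.05. Bfsp2 is the only gene with filled points, under DESeq2 and without wild type replicate 1, and points to the right of 0 belong to Mip and Hsf4.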

How the data were processed

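RNA was measured in 6 whole-eye libraries, 3 wild type and 3 knockout. The submitters' processing notes name build mm9 and the tools Cuffdiff 2.2.1, Cufflinks 2.2.1 and TopHat2 2.0.12; strand and read length are not given in the sources used here. The deposited gene table holds, per the file headers, an unscaled estimated count of fragments for each library beside the FPKM that the authors scaled themselves. The authors' deposited comparison lists p-values with q-values. The transcript length in bases is also as deposited. The counts (98.5% whole within 1e-06) were rounded, and 7 genes whose estimate had failed were left out. Rows give the group but not which titled sample they are, so replicates 1 to 3 only name libraries by the table's numbers, which start at 0. Each of the 6 genes has 1 transcript in the files, with the same fragments as the gene, so no separate isoform test was made.

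Genes were tested with edgeR 4.0.16 (R 4.3.3; TMM, filterByExpr with minimum count 10 and minimum total 15, quasi-likelihood F test over all 6 libraries, no covariate, Benjamini-Hochberg threshold 0.05), tested on simulated data. The SE was taken as the log2 fold change over the root of F. Alternatives used DESeq2 1.42.0, limma 3.58.1 on FPKM of at least 1, other scaling and filters, each library left out, a replicate block and sex. The 6 genes, 14 gene lists and tests were chosen with earlier results of these data known. The named genes are the 6, the list members past the threshold (or the 3 of smallest p), and the 8 most like patterns. Vim, Gja1 and Foxe3 were named after their values were seen. Some items that the rule names are not reported here. Of 3 listed genes the files hold older symbols. Same-numbered libraries of the groups correlated in their deviations at 0.13, 0.07 and −0.05, which does not settle whether the numbers pair the samples.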

Additional observations from a re-analysis of the deposited data

How the results depend on the processing

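Over 15 alternatives for each of the 6 lens fibre genes, 87 of 90 estimates were below 0 and 85 kept both direction and side of the threshold. All 90 come from the same 6 libraries and are not independent checks. In limma, where few genes passed at all, staying on the same side of the threshold was close to assured. Without wild type replicate 3 the log2 fold change was 0.0064 for Mip and 0.062 for Hsf4, and without knockout replicate 3 it was 0.0025 for Hsf4. Leaving out 1 library at a time gave −0.148 to 0.0064 for Mip, −0.20 to −0.07 for Bfsp1, −0.25 to −0.14 for Bfsp2, −0.25 to −0.06 for Gja3, −0.22 to −0.07 for Lim2 and −0.0901 to 0.0623 for Hsf4. Bfsp2 passed with DESeq2 (−0.21) and without wild type replicate 1. The cause was not tested. Leaving the crystallins out of the scaling moved none of the 6 by over 0.01. Over all genes, 431 were higher and 500 lower. Limma gave 10 and 3 on log2(FPKM + 1) and 6 and 3 on log2(FPKM + 0.1). Sex as a covariate gave 91 and 144, and the female libraries alone, which leave fewer samples, 96 and 149. Leaving out 1 library gave 271 to 425 higher and 315 to 460 lower. With the replicate block 558 were higher and 611 lower, none of the 6 changed call. Wild type replicate 1 correlated best with knockout replicate 1, but not every library correlated best with its own number. The isoform test and its alternatives were not run, since each gene has 1 transcript. Hsf4, on 167 to 605 fragments, is the gene that depth limits most.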
